A study of Mus musculus with 11 samples.

Results

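miR-146a-5p, miR-146b-5p and miR-155-5p are small RNAs that immune and epithelial cells make when inflammatory receptors are engaged. They were found by name in a table of 616 miRNA rows from mouse feces, and all 3 had a row. The feces were from C57BL/6 mice given dextran sulfate sodium (DSS), which injures the lining of the colon when mice drink it, and were taken in 3 phases. There were 4 libraries from before DSS (day 0), 3 from day 5, after 5 days of 2.5% DSS, and 4 from day 12, after 7 further days without DSS. No library came from mice kept without DSS until day 5 or day 12, so a phase cannot be told apart from its sampling day, and the labels give neither age nor sex. The libraries held 11749 to 40835 miRNA counts each, so that 3 counts over a whole group stood for 32.6 CPM (counts scaled to 1e+06 per library) before DSS, with 71.3 for day 5 and 26.6 for day 12. A pair of libraries stood apart, the first from its own group only. Before-DSS library 2 correlated with the others of its group at a median r of 0.825 (0.930 to 0.959 for those others). The same measure was lower on day 5, at 0.774 to 0.811. On principal component 1 before-DSS library 2 scored -4.79, within its group. Day 12 library 4 had the lowest median r of all libraries (0.683) and scored 15.2 on that component, ahead of 6.82 for the next library. Libraries are called by their group and the number in the deposited column.

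A miRNA guides the silencing machinery to messenger RNAs through its seed, the bases 2 to 8 from its 5′ end. miR-146a is induced by NF-kB, the transcription factor behind Toll-like receptor signalling, and represses the adaptors TRAF6 and IRAK1 of the same pathway, so it is known as a brake on inflammation. miR-146b has the same seed but its own gene, and in human monocytes it is induced by the anti-inflammatory cytokine IL-10. miR-155, cut from a non-coding transcript of activated macrophages and lymphocytes, represses SOCS1 and SHIP1, inhibitors of cytokine signalling, and is known as a promoter of inflammation.

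The mature sequences from RefSeq (GRCm38.p6, all 3 matched by name) are shown because the comparison of the 2 miR-146 rows rests on how little they differ. Capitals mark the seed.
miR-146a-5p: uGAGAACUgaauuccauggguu
miR-146b-5p: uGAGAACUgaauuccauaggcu
miR-155-5p: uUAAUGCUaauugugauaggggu
miR-146a-5p and miR-146b-5p were identical at 20 of 22 bases, and their first 17 bases were the same. Counted from the 5′ end with the base of miR-146a-5p first, they differed by G18A and U21C. These 2 were the only mature mouse miRNAs of the RefSeq table with this seed, and miR-155-5p was the only one with its own. A read cut short before the base that differs first would match both, and no source used here gives the mismatches the authors allowed, so how far the 2 counts are separate is uncertain.

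The precursors, in contrast, come from separate places and differ in length and sequence. The hairpins are shown with the mature 5p arm in capitals.
Mir146 (miR-146a): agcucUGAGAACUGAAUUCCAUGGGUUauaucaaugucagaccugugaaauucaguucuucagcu
Mir146b: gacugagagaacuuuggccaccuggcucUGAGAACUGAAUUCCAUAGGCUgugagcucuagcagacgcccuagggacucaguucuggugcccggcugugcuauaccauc
Mir146 lies on the minus strand at chr11:43374397-43374461 (GRCm38), inside no other gene of the GENCODE M21 annotation. Mir146b lies on the plus strand at chr19:46342762-46342870 in an intron of the protein-coding gene Mfsd13a. Mir155 lies on the plus strand at chr16:84714140-84714204 in an exon of its non-coding host gene Mir155hg. The opposite (3p) arms of the 3 hairpins had no row among the 616 and were not analysed here.

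The pair of miR-146 rows had their highest means in different phases, though the difference between them did not pass its own test. After adjustment that exact test could not fall under 0.05 with so few libraries. miR-146a-5p had its high libraries on day 5, and miR-146b-5p had them on day 12, where its increase over the libraries before DSS was the only one among the 3 members to pass the test (log2 fold change 1.59 ± 0.41 SE, edgeR quasi-likelihood adjusted p = 0.0317). Before DSS the 2 rows had similar levels, with 88 counts for miR-146a-5p and 100 for miR-146b-5p over the 4 libraries. In the test for any difference among the 3 phases, miR-146b-5p passed (edgeR adjusted p = 0.0446) and miR-146a-5p did not (edgeR adjusted p = 0.0942), where 11 of 137 tested miRNAs, 8.03%, passed. In feces, as in any bulk sample, more shed cells of a type and more of a miRNA per cell cannot be told apart.

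**Figure D1:**
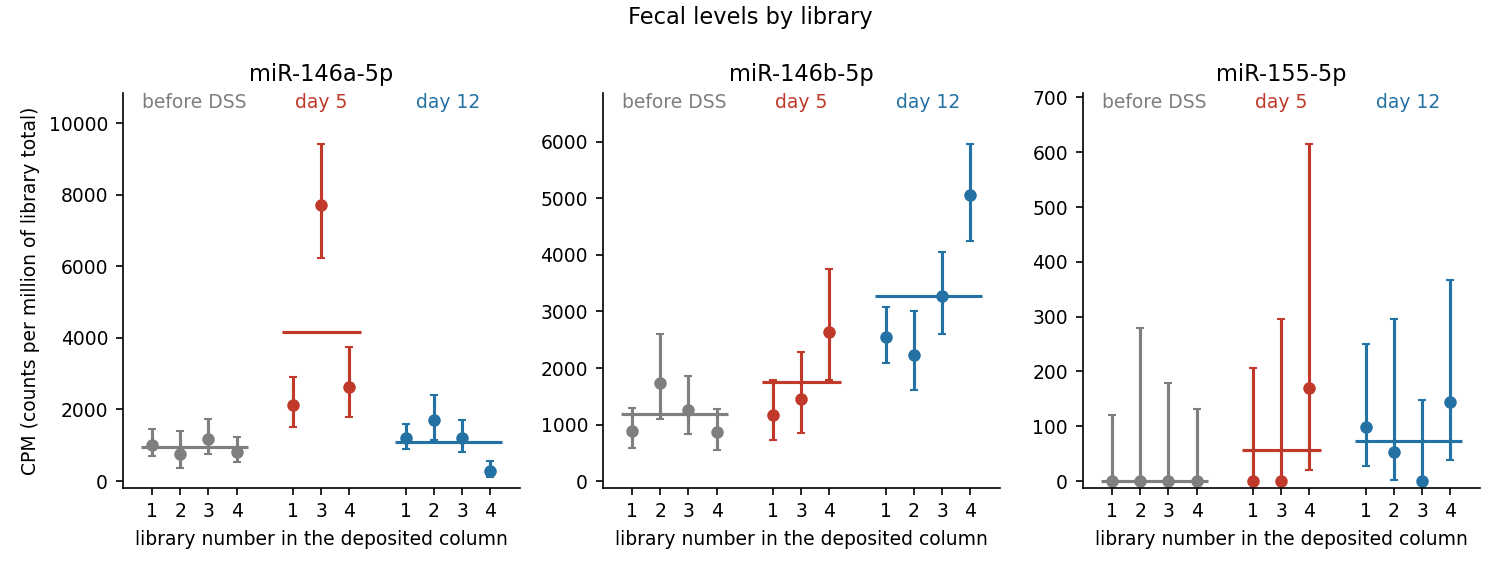
CPM by library total (vertical axis) of miR-146a-5p, miR-146b-5p and miR-155-5p in each library, with exact 95% Poisson intervals for counting error as bars and group means as horizontal lines. The 3 day 5 libraries of miR-146a-5p lie at 2126 CPM or more and the before-DSS libraries at 1166 CPM or less, the 4 day 12 libraries of miR-146b-5p lie at 2227 CPM or more, and miR-155-5p has no count before DSS.

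miR-146a-5p, the NF-kB-induced brake, stood at 1019, 755, 1166 and 825 CPM in before-DSS libraries 1 to 4. It stood at 2126, 7708 and 2639 CPM in day 5 libraries 1, 3 and 4. It stood at 1200, 1696, 1197 and 287 CPM in day 12 libraries 1 to 4. All 3 day 5 libraries were above every other library, day 5 library 3 far above the rest, and day 12 library 4 was the lowest of all 11. Among the tested rows, all day 5 libraries were likewise highest for let-7i-5p, miR-106b-3p, miR-10b-5p, miR-147-3p, miR-25-3p and a numbered row without a miRNA name. Before DSS the 4 counts (31, 10, 24 and 23) spread about as counting error alone would (chi-square 0.712 per degree of freedom). The same measure was 32.6 on day 5 and 8.07 on day 12, where the spread was larger than counting error. The rank of miR-146a-5p by count was 73 to 103 of 616 before DSS and 23 to 61 on day 5, and it was back at 73 to 114 on day 12.

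Set against the libraries before DSS, miR-146a-5p averaged 4158 ± 3086 CPM on day 5 (SD, n = 3) and 941 ± 187 CPM before DSS (SD, n = 4). The log2 fold change was 1.66 ± 0.52 (SE). The difference did not pass the test over all 137 miRNAs (edgeR quasi-likelihood, unadjusted p = 0.00700, adjusted p = 0.155). No miRNA passed in this comparison by edgeR (0 of 137, 0%), where 34, or 24.8%, had an unadjusted p under 0.05, DESeq2 called 5 and limma-voom 0. edgeR called 5 with a filter of 10 CPM in 3 libraries, and 16 (5 higher, 11 lower) when blocked by column number. The numbers did not pair these 2 groups in every case, and for no groups were they shown to pair the libraries. Among the 137, miR-146a-5p had the fifth smallest p and the ninth largest increase, and it was one of the 16.1% whose day 5 libraries all lay above all before-DSS libraries in CPM by library total. Much of the size came from 1 library: without day 5 library 3 the log2 fold change was 0.96 (edgeR adjusted p = 0.431).

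Between day 12 and day 5, miR-146a-5p averaged 1095 ± 588 CPM on day 12 (SD, n = 4) and 4158 ± 3086 CPM on day 5 (SD, n = 3), a log2 fold change of -1.58 ± 0.51 (SE) that did not pass (edgeR adjusted p = 0.111). In this comparison 5 of 137 miRNAs passed, 3.65%, and 14 did when the column number entered as a replicate block. The day 12 libraries all lay below the day 5 libraries, as for 8.76% of miRNAs in CPM by library total. Without day 5 library 3 the log2 fold change was -0.88. Against the libraries before DSS, the day 12 level differed by a log2 fold change of 0.08 ± 0.49 (SE, edgeR adjusted p = 0.956), and the groups overlapped.

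miR-146b-5p, the paralog, stood at 888, 1737, 1263 and 861 CPM in before-DSS libraries 1 to 4. It stood at 1175, 1445 and 2639 CPM in day 5 libraries 1, 3 and 4. It stood at 2547, 2227, 3270 and 5055 CPM in day 12 libraries 1 to 4. The day 12 libraries were all above the before-DSS libraries, while day 5 library 4 reached into the range of day 12 and the other 2 day 5 libraries stayed in the range before DSS. By rank among the 616 rows it stood at 70 to 78 before DSS, 59 to 81 on day 5 and 32 to 65 on day 12. The chi-square per degree of freedom among the libraries of a group was 2.72 before DSS, 4.82 on day 5 and 13.3 on day 12.

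On day 12 miR-146b-5p averaged 3275 ± 1265 CPM (SD, n = 4), against 1187 ± 410 CPM before DSS (SD, n = 4), and this increase passed the test (log2 fold change 1.59 ± 0.41 SE, edgeR adjusted p = 0.0317). It was one of 9 miRNAs that passed, 6.57% of the 137, all of them higher on day 12, and 15 passed in the fit blocked by column number. Its groups did not overlap, as for 9.49% of miRNAs in the higher direction. The call depended on single libraries: it was lost without day 12 library 4 (log2 fold change 1.11, edgeR adjusted p = 0.0944), and likewise when before-DSS library 1, 3 or 4 was left out (1.54, 1.61 and 1.56, with edgeR adjusted p of 0.114, 0.105 and 0.0966). It held without both libraries that stood apart (1.28, edgeR adjusted p = 0.0464), in a fit where 18 of the 137 miRNAs passed. Of those libraries, before-DSS library 2 had the highest miR-146b-5p level before DSS (1737 CPM). Leaving out that library alone raised the log2 fold change to 1.76, so the fit without both joins a change in each direction.

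Over the first 5 days miR-146b-5p averaged 1753 ± 779 CPM on day 5 (SD, n = 3) and 1187 ± 410 CPM before DSS (SD, n = 4), a log2 fold change of 0.21 ± 0.45 (SE, edgeR adjusted p = 0.832). Between day 12 and day 5 the means were 3275 ± 1265 CPM on day 12 (SD, n = 4) and 1753 ± 779 CPM on day 5 (SD, n = 3), a log2 fold change of 1.38 ± 0.45 (SE) that did not pass (edgeR adjusted p = 0.113). It passed when blocked by column number (log2 fold change 1.42, edgeR adjusted p = 0.0470) and by DESeq2 (1.39, adjusted p = 0.0384). Without day 12 library 4 it was 0.89 (edgeR adjusted p = 0.164), and scaled by library total only it was 0.91.

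**Figure D2:**
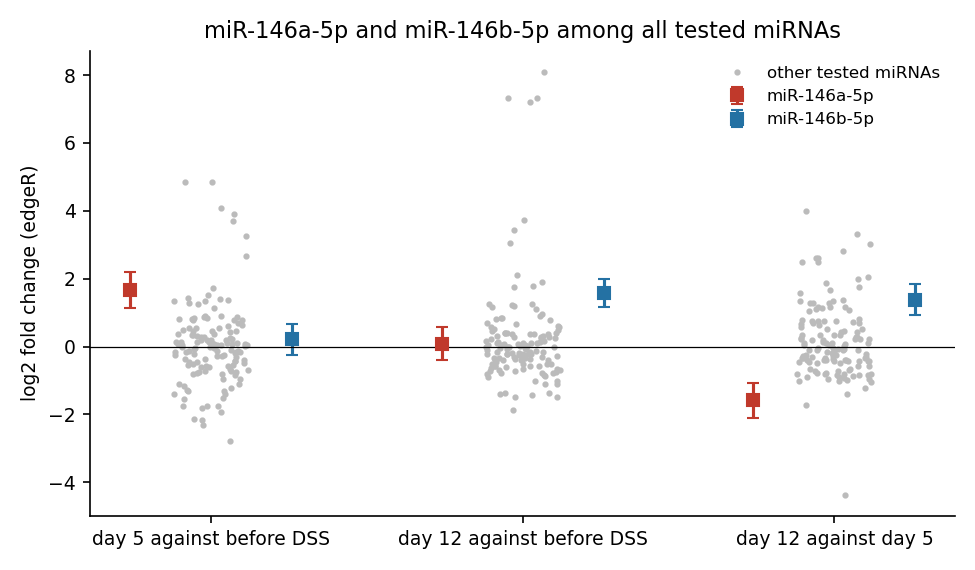
Log2 fold change by edgeR (vertical axis) of miR-146a-5p and miR-146b-5p (squares, bars are standard errors) and of the other tested miRNAs (grey points) in the 3 comparisons. miR-146a-5p lies at 1.66, 0.08 and -1.58 and miR-146b-5p at 0.21, 1.59 and 1.38, from left to right.

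Whether the 2 rows moved differently was asked directly from their ratio, which needs no scaling because both counts come from the same library. As a share of the counts of both rows, miR-146a-5p made up 53.4%, 30.3%, 48.0% and 48.9% in before-DSS libraries 1 to 4. On day 5 the share was 64.4%, 84.2% and 50.0% in libraries 1, 3 and 4. On day 12 it was 32.0%, 43.2%, 26.8% and 5.37% in libraries 1 to 4. Every day 5 library had a share of at least 50.0% and every day 12 library a share of at most 43.2%, and the before-DSS libraries lay between and overlapped both. The exact binomial 95% interval was 76.2% to 90.4% in day 5 library 3 (96 of 114 counts) and 2.35% to 10.3% in day 12 library 4 (8 of 149 counts). These intervals hold counting error and nothing else, and the labels describe no molecular identifiers.

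The mean share was 26.9% ± 15.9 on day 12 (SD, n = 4) and 66.2% ± 17.2 on day 5 (SD, n = 3). Before DSS it was 45.2% ± 10.2 (SD, n = 4). The mean log2 ratio of miR-146a-5p to miR-146b-5p was -1.74 on day 12 and 1.07 on day 5, a difference of -2.81. The groups did not overlap, and the exact two-sided permutation p of 0.0571 is the smallest that 4 against 3 libraries can give. On day 5 the ratio differed from that before DSS by 1.36 (exact permutation p = 0.114), and by 0.71 without day 5 library 3. On day 12 it differed from that before DSS by -1.45 (exact permutation p = 0.0857), and by -0.68 without day 12 library 4. Adjusted over these 3 exact tests every p was 0.114, so a difference in timing between the 2 rows was not shown at the 0.05 level. The smallest exact p is 0.0286 for 4 against 4 libraries, so no adjusted p could fall under 0.05 in a design of this size. These tests therefore cannot decide whether the 2 rows differed in timing.

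**Figure D3:**
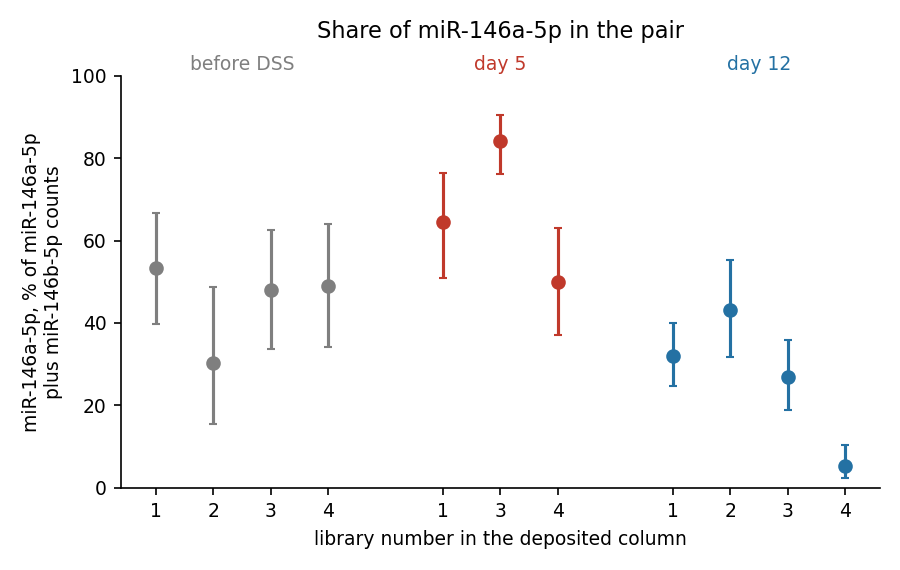
Share of miR-146a-5p among the counts of miR-146a-5p and miR-146b-5p together (vertical axis, percent) in each library, with exact binomial 95% intervals for counting error as bars. Shares run from 30.3% to 53.4% before DSS, 50.0% to 84.2% on day 5 and 5.37% to 43.2% on day 12.

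Added together, the 2 rows give the level of the shared seed only if no read was counted in both or dropped, which no source used here states. Some other rows had equal values, so shared counts are possible. For example, miR-122-5p and miR-122b-3p both averaged 779 CPM on day 5 and 1870 CPM before DSS. The sum of the 2 miR-146 rows was 1907, 2492, 2430 and 1686 CPM in before-DSS libraries 1 to 4. It was 3301, 9154 and 5277 CPM in day 5 libraries 1, 3 and 4. It was 3747, 3923, 4467 and 5342 CPM in day 12 libraries 1 to 4. All 7 libraries taken after the start of DSS were above all 4 taken before it. On the same CPM scale, 16.1% of the 137 tested miRNAs were likewise higher in every day 5 library than in any before-DSS library. For day 12 set against before DSS this share was 9.49%. Of the 137, those with all 7 later libraries above all 4 before DSS were miR-142a-3p, miR-142a-5p, miR-142b, miR-16-5p and miR-223-3p. As a single row in the fit, the sum had a log2 fold change of 1.07 ± 0.36 (SE, edgeR adjusted p = 0.151) on day 5 against before DSS and of 1.09 ± 0.34 (SE, edgeR adjusted p = 0.0889) on day 12 against before DSS. Neither passed, although the groups did not overlap. Between day 12 and day 5 it was 0.03 ± 0.36 (SE, edgeR adjusted p = 0.957), with overlapping libraries.

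miR-155-5p, the pro-inflammatory member, was near the detection limit in every phase. It had 0 counts in all 4 before-DSS libraries, 0, 0 and 2 counts in day 5 libraries 1, 3 and 4, and 4, 1, 0 and 4 counts in day 12 libraries 1 to 4. Pooled over libraries, day 5 gave 47.5 CPM, day 12 gave 79.9 CPM, and the 0 of 92108 counts from before DSS allow a level of up to 32.6 CPM. Reads of it were held by 3 of 4 day 12 libraries and 1 of 3 day 5 libraries. The 9 counts of day 12 put it at least 2.45-fold above the floor of 3 counts over the group before DSS, and at least 1.81-fold without day 12 library 4, with no allowance for the counting error of those 9. The ratio of day 12 to day 5 was 1.68, with an exact 95% counting interval of 0.348 to 16.0.

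edgeR's filter on low counts removed miR-155-5p. In the fit of all 616 rows it did not pass on day 12 against before DSS (unadjusted p = 0.0128, edgeR adjusted p = 0.257), where 17 rows, 2.76%, did. Nor did it pass on day 5 against before DSS (edgeR adjusted p = 0.627, 2.44% of rows called) or on day 12 against day 5 (edgeR adjusted p = 0.778, 3.41% called). On log2(CPM + 1), two-sided exact permutation tests over libraries returned p = 0.143 for day 12 and p = 0.857 for day 5, each set against before DSS, and p = 0.743 between day 12 and day 5. With adjustment for 3 comparisons these exact p-values became 0.429, 0.857 and 0.857. No change of miR-155-5p was called at these counts. The smallest exact p these groups allow is 0.0286 for 4 against 4 libraries and 0.0571 for 4 against 3. With adjustment for 3 comparisons no exact p could therefore fall under 0.05.

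Levels of cell type markers are set beside these results, and their part in them was not tested. The summed level of 6 leukocyte miRNAs (both arms of miR-142a and miR-223, miR-150-5p and miR-342-3p, all 6 with a row) was 194 to 453 CPM before DSS, 1285 to 2298 CPM on day 5 and 6150 to 9357 CPM on day 12. The 4 arms of miR-142a and miR-223 carried this difference. The lymphocyte miRNAs miR-150-5p and miR-342-3p, below the filter on low counts, had 3 and 13 counts before DSS, 8 and 7 on day 5, and 17 and 11 on day 12, and the mean of miR-342-3p was 109 CPM on day 12 against 173 CPM before DSS. Before DSS miR-142a-3p and miR-223-5p, which mark blood cell lineages and myeloid cells, were at 0 counts. On day 12 the leukocyte sum was 6587, 6150, 7219 and 9357 CPM in libraries 1 to 4. There the libraries had the same order as for miR-146b-5p, highest in library 4 and lowest in library 2. Before DSS and on day 5 the orders differed. The leukocyte sum was lowest in before-DSS library 3 and day 5 library 3, miR-146b-5p in before-DSS library 4 and day 5 library 1. Both were highest in before-DSS library 2 and day 5 library 4. The sum of the red blood cell miRNAs miR-451a, miR-486a-5p and miR-144-3p was 6961 to 16616 CPM before DSS, 21921 to 37705 CPM on day 5 and 4114 to 24558 CPM on day 12. miR-144-3p was at 0 before DSS. Day 5 library 3, the highest in miR-146a-5p, had the lowest red blood cell sum of its group.

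The summed level of 9 miRNAs of intestinal epithelium, led by miR-192-5p, was 123792 to 222964 CPM before DSS, 61908 to 184814 CPM on day 5 and 116819 to 205822 CPM on day 12. Its lowest value of all libraries was in day 5 library 3. Against before DSS their median log2 fold change was -0.75 for day 5 and -0.35 for day 12, beside 0.03 and -0.02 over all 137 miRNAs, and 0 of 9 passed by edgeR in either comparison. The 3 neural miRNAs (miR-9-5p, miR-124-3p and miR-128-3p) summed to 12522 to 51057 CPM before DSS, 24340 to 41914 on day 5 and 2044 to 37216 on day 12.

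Of 16 other miRNAs linked to Toll-like receptor and NF-kB signalling, all had a row and 12 passed the filter on low counts. On day 5 against before DSS 0 of the 12 passed the test, 11 had positive log2 fold changes and their median was 0.70, beside 70 of 137 positive and a median of 0.03 over all tested miRNAs. On day 12 against before DSS 1 of the 12 was higher by the test, 6 were positive and the median was 0.00, beside 9 of 137 called (6.57%), 64 positive and a median of -0.02 over all. On day 12 against day 5 1 of the 12 was higher by the test, 10 were negative and the median was -0.84, beside 5 of 137 called (3.65%), 69 negative and a median of -0.03 over all. The 1 that passed in both was miR-223-3p, abundant in neutrophils, with 1 count over the 4 libraries before DSS, so that it reached the filter only through later libraries. The 3 comparisons share groups, so their lists of values are not independent.

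The 4 most abundant members of that list were miR-21a-5p, miR-9-5p, miR-181a-5p and miR-147-3p. miR-21a-5p, raised in many inflamed tissues, had log2 fold changes against before DSS of -0.31 on day 5 and 0.85 on day 12 (edgeR adjusted p = 0.769 and 0.346). For miR-9-5p they were 0.05 and -0.51 (edgeR adjusted p = 0.966 and 0.738). For miR-181a-5p, known from lymphocyte signalling, they were 0.90 and 0.11 (edgeR adjusted p = 0.198 and 0.907). miR-147-3p, which Toll-like receptor ligands induce in mouse macrophages, had 1.40 and 0.39 (edgeR adjusted p = 0.164 and 0.738). None of these 4 passed in any comparison.

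**Figure D4:**
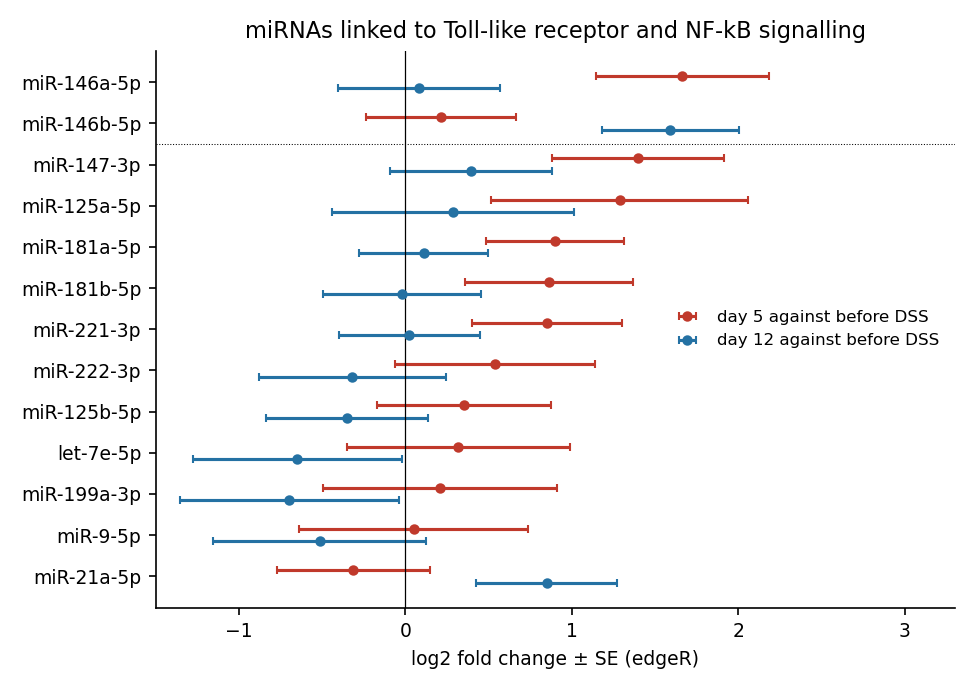
Log2 fold change by edgeR (horizontal axis, bars are standard errors), with day 5 in red and day 12 in blue, each against before DSS, of miR-146a-5p and miR-146b-5p (above the dotted line) and of the other tested miRNAs linked to Toll-like receptor and NF-kB signalling except miR-223-3p, which lies off the scale at 4.09 and 8.10. miR-146a-5p and every list member shown except miR-21a-5p have their higher value on day 5, and miR-146b-5p and miR-21a-5p have it on day 12.

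Over the 11 libraries, the tested miRNAs whose log2 CPM was most like that of each miR-146 row were different for the 2 rows. For miR-146a-5p they were let-7i-5p (Pearson r = 0.92), miR-100-5p (0.78) and let-7a-5p (0.75). Without day 5 library 3 these were 0.86, 0.68 and 0.52. For miR-146b-5p they were miR-223-5p (0.93), miR-223-3p (0.85) and miR-142a-3p (0.85), the leukocyte miRNAs above, and without day 12 library 4 these were 0.93, 0.82 and 0.90. These 3 had 0, 1 and 0 counts over the libraries before DSS and 4, 15 and 8 on day 5, so they passed the filter through the day 12 libraries and their r rests in part on values at the floor. Between miR-146a-5p and miR-146b-5p r was -0.51, and -0.17 without day 12 library 4. The correlations describe these libraries, which fall into 3 phases and share a library total across rows, and they carry no test.

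For comparison, let-7i-5p, the most alike of the first 3, and miR-223-3p, the second of the other 3 and the most abundant of them on day 12, are shown because both have seeds unlike that of miR-146 (RefSeq, GRCm38.p6, seed in capitals).
let-7i-5p: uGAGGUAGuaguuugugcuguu
miR-223-3p: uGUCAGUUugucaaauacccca
let-7i-5p, of the let-7 family, averaged 39899 ± 9446 CPM on day 5 (SD, n = 3), against 16722 ± 3276 CPM before DSS (SD, n = 4), and did not pass (log2 fold change 0.87, edgeR adjusted p = 0.155). miR-223-3p had 0, 0, 0 and 1 counts in before-DSS libraries 1 to 4, 6, 3 and 6 counts in day 5 libraries 1, 3 and 4, and 98, 81, 116 and 185 counts in day 12 libraries 1 to 4. Its day 5 libraries were already above those before DSS, whereas 2 of the 3 day 5 libraries of miR-146b-5p were still within the range before DSS.

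**Figure D5:**
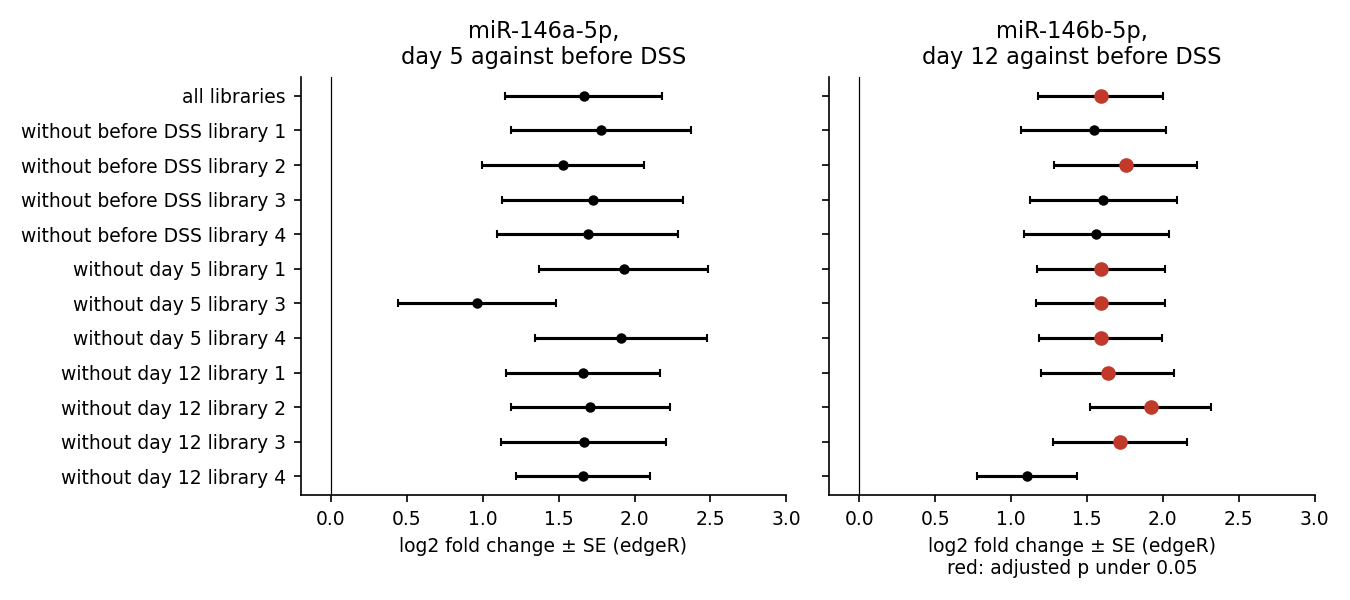
Log2 fold change by edgeR (horizontal axis, bars are standard errors) of miR-146a-5p on day 5 against before DSS (left) and of miR-146b-5p on day 12 against before DSS (right), with all libraries and with each library left out. Red points have an adjusted p under 0.05: there is none for miR-146a-5p, whose value is 0.96 without day 5 library 3, and miR-146b-5p has 8 of 12, its value being 1.11 without day 12 library 4.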

How the data were processed

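The authors deposited a table of raw read counts for 616 rows (544 with miRNA names, 72 numbered) in 11 libraries. Per the labels' protocols, fecal RNA (mirVana kit) went into TruSeq small RNA libraries sequenced on a HiSeq 2500 instrument, and ACGT101-miR removed adapter dimers, junk and low complexity reads, other RNA families and repeats. No source used here names the aligner, miRNA release, build or mismatches. The table's 11 scaled columns were not used.

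Groups come from the labels. Day 12 columns match titles by number, day 5 columns (1, 3 and 4) and before-DSS columns were assigned to a group only. The labels do not say that the libraries of a group came from separate mice, so the spread behind each p-value may be technical. Within groups every pair of libraries differed beyond counting noise (lowest chi-square over degrees of freedom 3.85).

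The main test was the quasi-likelihood F-test of edgeR 4.0.16 in R 4.3.3 on the deposited counts, after TMM scaling and the default filter on low counts (137 rows kept), with all 11 libraries in 1 fit on group and Benjamini-Hochberg adjustment at 0.05. Percentages called refer to these rows. CPM are counts over the library total, and standard errors come from the F statistic. The ratio used 0.5 added to each count. Exact permutation tests and intervals used scipy 1.17.1. Likeness used log2 CPM with TMM factors and a prior count of 2. Simulated counts were used to check the fit. The alternatives were RLE scaling, library totals only, DESeq2 1.42.0, voom of limma 3.58.1, no filter or one of 10 CPM in 3 libraries, the column number as a block, fits restricted to a pair of groups, the 2 miR-146 rows added, and leaving out each library. Leaving out both libraries that stand apart was added after seeing the data.

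The members and lists were chosen with earlier results of these data known. The rule names the members, their other arms, the list members past the threshold or else the 4 most abundant of a list, and the 3 most alike miRNAs.

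The column numbers were checked as pairs by correlating deviations from group means. Of 10 same-numbered pairs 9 exceeded 0.1: all 4 of day 12 with before DSS, all 3 of day 12 with day 5 (lowest 0.101), and not all of day 5 with before DSS (lowest -0.10). By the same measure, 5 of 11 libraries were most like a library of their own number when set against all libraries of the other groups. No baseline was taken from pairs of unlike number, nor was the count to be had without pairing worked out. The check therefore cannot decide whether the numbers pair the libraries. The labels do not say that a number marks the same mouse.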

Additional observations from a re-analysis of the deposited data

How the results depend on the processing

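Of the members' values, miR-146a-5p on day 5 against before DSS kept its direction and did not pass under any of 21 alternatives. The log2 fold change was 0.96 to 2.13, with an adjusted p of 0.0506 to 0.431 over edgeR, DESeq2 and limma-voom. In the alternative with the 2 rows added, the value given for either row is that of their sum. With library totals only, the median of all miRNAs shifted by 0.31 (day 5 against before DSS), 0.07 (day 12 against before DSS) and -0.28 (day 12 against day 5). Less that shift, miR-146a-5p was at 1.82, 0.13 and -1.64, and miR-146b-5p at 0.26, 1.41 and 1.19. The call of miR-146b-5p on day 12 against before DSS was lost with limma-voom (1.41, adjusted p = 0.0598), with the 2 rows added (1.09) and without 4 single libraries (range over all libraries left out 1.11 to 1.92). On day 12 against day 5 it was gained with DESeq2 (1.39) and the replicate block (1.42). Near 0, signs turned for miR-146a-5p on day 12 against before DSS with limma-voom (-0.017) and when a library was left out (-0.14 to 0.35), and for miR-146b-5p on day 5 against before DSS (-0.15 to 0.37). For miR-146a-5p on day 12 against day 5 the sign turned only where the sum of the 2 rows stood in its place (0.026). With the replicate block the ratio differed by 1.07, -1.45 and -3.26 in the 3 comparisons. The exact p from flipping the signs of differences between same-numbered libraries was 0.25 each. That is the smallest p that the 3 pairs of a comparison with day 5 can give. The cause was not tested.

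On day 5 against before DSS 0 miRNAs passed by edgeR, 1 with library totals only, 15 without filter, 5 with the 10 CPM filter, 5 with DESeq2, 16 with the replicate block and 0 to 2 with a library left out. On day 12 against before DSS 9 passed, 17 without filter, 15 with the block, 18 without both libraries that stand apart and 5 to 14 with a library left out (fewest without library 1 from before DSS, most without library 2 of that group). With library totals only 10 were higher and 2 lower. On day 12 against day 5 5 passed (4 higher, 1 lower), 2 with library totals only (1 higher, 1 lower), 21 without filter, 10 with the 10 CPM filter, 12 with DESeq2, 2 with only the groups compared, 14 with the block, 10 without both libraries that stand apart and 1 to 7 with a library left out. Without a filter more rows were tested. miR-155-5p had the fewest counts of the 3 members, at 0 to 4 a library.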

Other observations

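miR-147-3p, which Toll-like receptor ligands induce in mouse macrophages, had on day 5 a narrower spread than miR-146a-5p. It stood at 1019, 680, 1118 and 1615 CPM in before-DSS libraries 1 to 4. It stood at 4476, 4416 and 3234 CPM in day 5 libraries 1, 3 and 4. It stood at 1959, 742, 2872 and 825 CPM in day 12 libraries 1 to 4. In CPM by library total all 3 day 5 libraries were above the other 8. Among the tested rows the same was true of miR-146a-5p, let-7i-5p, miR-106b-3p, miR-10b-5p, miR-25-3p and a numbered row without a miRNA name. Of the tested miRNAs, 16.1% had all day 5 libraries above all before-DSS libraries, and 8.76% had all day 12 libraries below all day 5 libraries. With TMM factors the day 5 and day 12 libraries of miR-147-3p overlapped. Its chi-square per degree of freedom on day 5 was 1.53, where it was 32.6 for miR-146a-5p. In the other phases it was larger for miR-147-3p, at 2.68 before DSS and 15.1 on day 12, beside 0.712 and 8.07 for miR-146a-5p. miR-147-3p did not pass on day 5 against before DSS (log2 fold change 1.40 ± 0.52 SE, edgeR adjusted p = 0.164). It was singled out after its values were seen.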
